A study of Homo sapiens with 4 samples.

Results

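Ribosome biogenesis factors are the proteins that build ribosomes but are not part of the finished particle. In the nucleolus they fold, cut and chemically modify the precursor ribosomal RNA. The small subunit processome, which gathers the UTP proteins and the U3 snoRNP, shapes the small subunit, a second set of factors shapes the large subunit, and small nucleolar ribonucleoproteins (snoRNPs) guide methylation and pseudouridylation of the RNA. Many of these genes are textbook targets of MYC, and growing cancer cells depend on their output.

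The genes were chosen by name. The rule took the platform symbols that begin with UTP, RRP, NOP or NOL followed by a digit, and added BOP1, WDR12, PES1, FBL, DKC1, NCL, NPM1, MPHOSPH10, IMP3, IMP4, NAT10, GAR1 and NHP2. It found 52 genes of 20046 with a named probe, and 47 of the 52 are known as ribosome biogenesis factors. The other 5 carry only the name: NOL3 encodes an apoptosis repressor, NOL4 and NOL4L are not known to act on ribosomes, RRP7BP is a pseudogene and NOP14-AS1 is an antisense RNA. The group was proposed with the differences of these same arrays in view. Its differences are therefore given as a description, and its counts support nothing about the group.

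The arrays came from H23 cells, an established line of human lung cancer. The 2 control samples overexpressed green fluorescent protein (GFP) and the 2 SOX7 samples overexpressed the SRY-box transcription factor SOX7. Both groups shared the same line and growth to near confluence, and their polyA RNA was read on Illumina HumanHT-12 v4 BeadChips. How the genes were introduced, whether the lines were single clones and whether the samples of a group were separate cultures is not given in the sources used here. The p-values therefore speak only of how far these 4 samples scatter, and that scatter may be technical.

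Log2 values of 48107 probes were read from every array, with a median of 6.26, and 12804 genes whose probe mean reached at least 6.25 were tested. A gene is said to have passed, risen or fallen where limma's moderated test gave a Benjamini-Hochberg adjusted p under 0.05 over all of these genes. All differences are SOX7 minus control in log2 intensity. Between the 2 arrays of a group, differences had an SD of 0.146 in the control and 0.150 in the SOX7 group, and over the tested ribosome biogenesis genes the SDs were 0.125 and 0.102. Of the 2 SOX7 probes above the filter, the brighter read 6.18 and 6.45 in the control arrays and 6.53 and 6.78 in the SOX7 arrays and did not pass (limma adjusted p = 0.0583). The other read 6.28 and 6.33 in the control and 6.24 and 6.38 in the SOX7 arrays, which overlapped, and showed no rise (difference 0.0039). These probes thus did not show the labelled overexpression, and where they lie on the transcript that was introduced is not known. Of 8 epithelial markers 5 lay above the intensity filter, led by KRT18 and KRT8, while KRT19, CDH1 and CLDN7 did not. Of 5 alveolar lung markers 0 lay above it. Among markers of other cells, 0 of 5 endothelial, 2 of 4 leukocyte and 4 of 5 fibroblast genes lay above it, while the defining genes PTPRC, CD3E, PECAM1, CDH5 and PDGFRB did not. The mean of the 8 epithelial markers ran from 6.68 to 6.74 in the control and from 6.82 to 6.85 in the SOX7 arrays, with KRT18 higher by 0.45 (limma adjusted p = 0.00453). The other epithelial markers did not pass or were not tested. Positive differences were 0.22 for KRT8, 0.14 for EPCAM, 0.24 for KRT19 and 0.22 for CLDN7. KRT7 (−0.028), CLDN4 (−0.054) and CDH1 (−0.20) went the other way. The mean of the 4 leukocyte markers ran from 7.09 to 7.16 in the control and from 7.28 to 7.30 in the SOX7 arrays, with CD14 higher by 0.64 (limma adjusted p = 0.000482). The other leukocyte markers had overlapping arrays and differed by −0.021 for LYZ, 0.014 for PTPRC and 0.022 for CD3E. The endothelial mean ran from 6.02 to 6.05 in the control and from 5.86 to 5.97 in the SOX7 arrays. The fibroblast means overlapped (6.26 to 6.38 and 6.36 to 6.36), but LUM in that list was higher by 0.52 (limma adjusted p = 0.00156). The second LUM probe, below the filter, differed by 0.044, and the median difference over its neighbours on the chromosome was 0.15. The other fibroblast markers had negative differences, −0.17 for COL1A1, −0.12 for COL1A2, −0.0071 for DCN and −0.013 for PDGFRB. The part of these shifts in the results was not tested.

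Of the 52 genes, 50 were tested. In SOX7 cells 11 rose and 1 fell, 24% of the tested genes, where 18.8% of all genes tested passed. The 11 that rose stand beside a background of 8.98% and the 1 that fell beside 9.83%. The genes that rose were UTP20, NOL12, IMP4, NOP2, NCL, NOP14, UTP15, DKC1, RRP15, BOP1 and NOL6, by 1.22-fold to 1.51-fold. The gene that fell, NOL3, is not a known ribosome biogenesis factor. The median difference was 0.14 over the 50 genes, a median fold of 1.11, against 0.0035 over all genes tested. Positive differences were seen in 40 of the 50, against 50.8% of all genes. In 32 of the 50 both SOX7 arrays lay above both control arrays and in 4 both lay below, against 29.6% and 29.0% of all genes. Together the arrays did not overlap in 36 of the 50, against 58.5% of all genes. Most of these genes were bright: 44 lay above the 75th percentile of intensity, and among genes above it, fitted alone, 17 of the 44 passed where 33.4% of all such genes did. In these bulk samples a change in the mix of cells and a change in RNA per cell cannot be told apart.

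The differences were small and of similar size in single arrays. The mean over the 50 genes was 9.89 and 9.91 in the control arrays and 10.03 and 10.06 in the SOX7 arrays, so both SOX7 arrays lay above both control arrays. A change of at least 1.5-fold was reached by 1 of the 12 genes that passed (UTP20) and a change of 2-fold by 0. Leaving out each array in turn, 6 to 8 of the genes passed, and UTP20, IMP4, NOL12 and NOL3 kept their calls in all 4 fits. Without SOX7 replicate 1 or without SOX7 replicate 2 the count was 6, and without control replicate 1 it was 7.

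**Figure D1:**
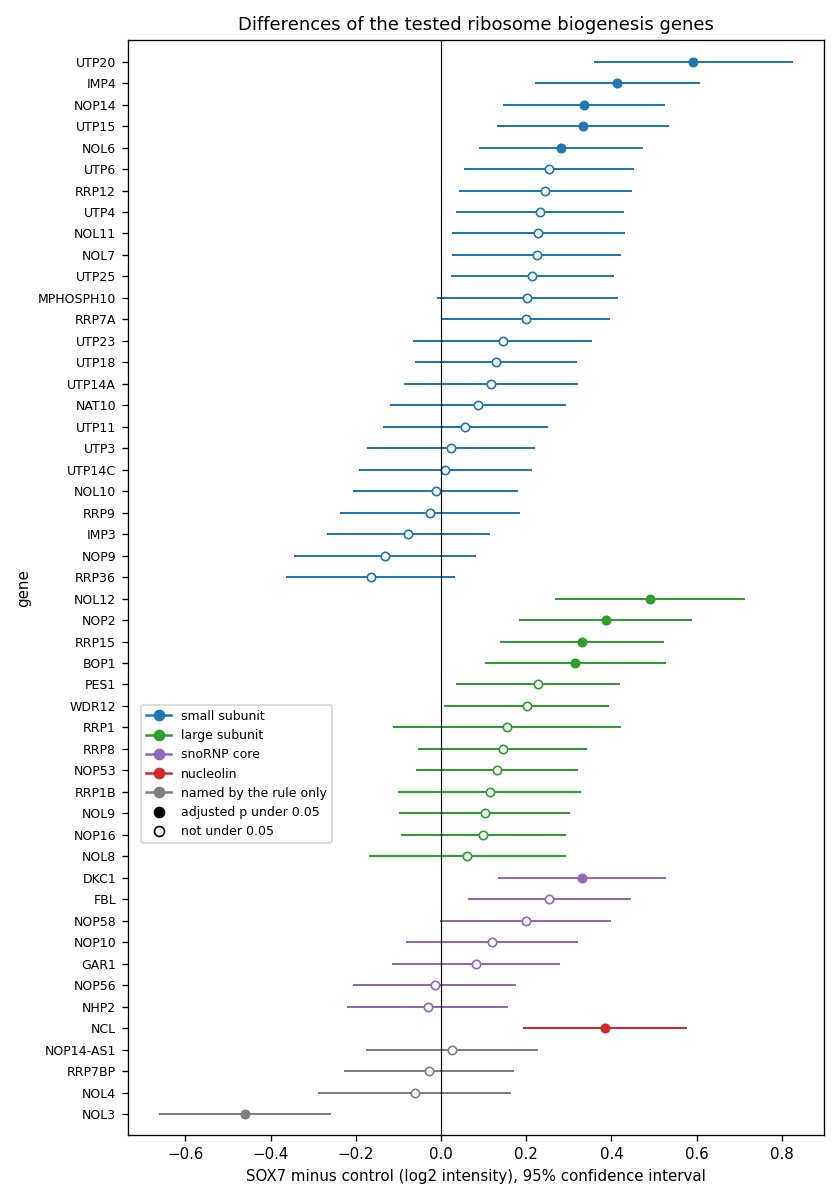
Difference between SOX7 and control arrays (log2 intensity, x axis) for each of the 50 tested genes (y axis), coloured by role; lines are the 95% confidence intervals of the moderated fit and filled points passed the adjusted threshold of 0.05. All 13 large subunit factors lie right of 0, but the intervals of several of them span 0. UTP20 lies farthest right at 0.59 and NOL3 farthest left at −0.46.

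UTP20 encodes a very large scaffold protein of the small subunit processome. It read 7.31 and 7.20 in the control arrays and 7.70 and 7.99 in the SOX7 arrays. Both SOX7 arrays were above both control arrays, and the rise of 0.59 (SE 0.11, 1.51-fold) was the largest among the 50 genes. Its other 2 probes lay below the intensity filter and differed by 0.036 and 0.23. UTP20 lies in a stretch of the genome whose genes were higher, the median over its neighbours being 0.15, and its difference with that median removed was 0.44, which passed.

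IMP4 encodes a partner of MPHOSPH10 and IMP3 in the U3 snoRNP. Its control arrays read 11.66 and 11.76 and its SOX7 arrays 12.14 and 12.12, a rise of 0.41 (SE 0.088, 1.33-fold). The groups were apart by more than the spread within either. The partners did not pass: MPHOSPH10 differed by 0.20 and IMP3 by −0.076.

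NOL12, a nucleolar factor of precursor cleavage, read 10.58 and 10.83 in the control and 11.16 and 11.23 in the SOX7 arrays, a rise of 0.49 (SE 0.10, 1.41-fold). The control arrays were the more widely spaced pair. Its second probe differed by 0.25 without passing. NOP2, a methyltransferase of large subunit RNA, read 11.56 and 11.61 in the control and 12.05 and 11.89 in the SOX7 arrays, a rise of 0.39 (SE 0.092, 1.31-fold). Of its 3 other probes, 2 passed in the same direction, by 0.36 and 0.44, and a dim one differed by 0.019. The call of NOP2 on its brightest probe was lost without SOX7 replicate 1, where the difference was 0.31.

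The promoters of these 4 genes are shown because they had the largest rises among the small and large subunit factors and because CACGTG, the E-box that MYC with its partner MAX is known to bind, is common in this gene group. The sequences are RefSeq's for GRCh38.p14, from 250 bases before to 50 bases after the annotated start, written 5′ to 3′ on the gene's strand, with CACGTG in capitals. They are chr12:101279855-101280154 (plus strand) for UTP20, chr2:130342647-130342946 (plus strand) for the first of 2 IMP4 starts, chr12:6568242-6568541 (minus strand) for NOP2 and chr22:37686093-37686392 (plus strand) for NOL12.
UTP20: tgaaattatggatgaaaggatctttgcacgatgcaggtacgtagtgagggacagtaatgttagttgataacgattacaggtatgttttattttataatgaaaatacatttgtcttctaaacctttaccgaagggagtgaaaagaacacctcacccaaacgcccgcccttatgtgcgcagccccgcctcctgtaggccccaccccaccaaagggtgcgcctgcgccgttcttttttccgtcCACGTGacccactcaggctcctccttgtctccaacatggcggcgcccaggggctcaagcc
IMP4: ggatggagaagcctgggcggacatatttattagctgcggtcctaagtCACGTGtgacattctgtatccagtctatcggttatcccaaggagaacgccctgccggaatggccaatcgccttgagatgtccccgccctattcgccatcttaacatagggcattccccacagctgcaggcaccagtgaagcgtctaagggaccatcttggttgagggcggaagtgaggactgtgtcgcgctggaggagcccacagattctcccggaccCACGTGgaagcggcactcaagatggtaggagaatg
NOP2: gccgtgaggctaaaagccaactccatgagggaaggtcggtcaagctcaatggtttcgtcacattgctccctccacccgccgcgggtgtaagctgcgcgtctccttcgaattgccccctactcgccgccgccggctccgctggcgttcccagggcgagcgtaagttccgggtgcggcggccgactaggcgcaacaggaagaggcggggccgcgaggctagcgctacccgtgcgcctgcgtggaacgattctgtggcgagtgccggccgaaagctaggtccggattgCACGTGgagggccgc
NOL12: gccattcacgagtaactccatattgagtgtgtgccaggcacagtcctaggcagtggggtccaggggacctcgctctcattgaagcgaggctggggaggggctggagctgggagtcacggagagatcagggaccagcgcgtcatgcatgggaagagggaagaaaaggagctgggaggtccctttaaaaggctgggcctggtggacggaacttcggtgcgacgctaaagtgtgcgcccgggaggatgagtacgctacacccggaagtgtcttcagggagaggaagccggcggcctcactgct
Counting the start base as 1 and the base before it as −1, CACGTG began at −10 in UTP20, at −203 and 16 in IMP4 and at 36 in NOP2, and it had no match in NOL12. IMP4 has a second annotated start, whose promoter (chr2:130343020-130343319, plus strand) had no match and is not shown.

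Promoters were found for 44 of the 52 genes, 52 sequences in all, since some genes have several starts. CACGTG, which reads the same on both strands, occurred in 17 of these 52 promoters (32.7%), against 9.13% of 14704 promoters of all genes tested and 7.26% of all 35116 promoters. Counted by gene, 17 of 44 held it (38.6%), against 12.4% of tested genes with a promoter. Among the genes that rose it was found in 5 of 10, namely UTP20, IMP4, NOP2, NOP14 and NOL6. Among tested genes that did not pass it was found in 12 of 31, so it was also common among those. The letters AACAAT, a core that SOX proteins bind, searched on both strands, were found in 2 of the 52 promoters (3.85%), those of UTP14C and WDR12, against 6.23% of the promoters of tested genes. CCGGAAGT, an ETS site, was found in 4 of 52 (7.69%, background 6.98%), and AAGATGGC, a YY1 site, in 2 (3.85%, background 4.52%), both searched on both strands. TGACGTCA, the cyclic AMP response element, was found in 2 (3.85%, background 2.82%; it reads the same on both strands). A match is a run of letters and not a shown site.

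**Figure D2:**
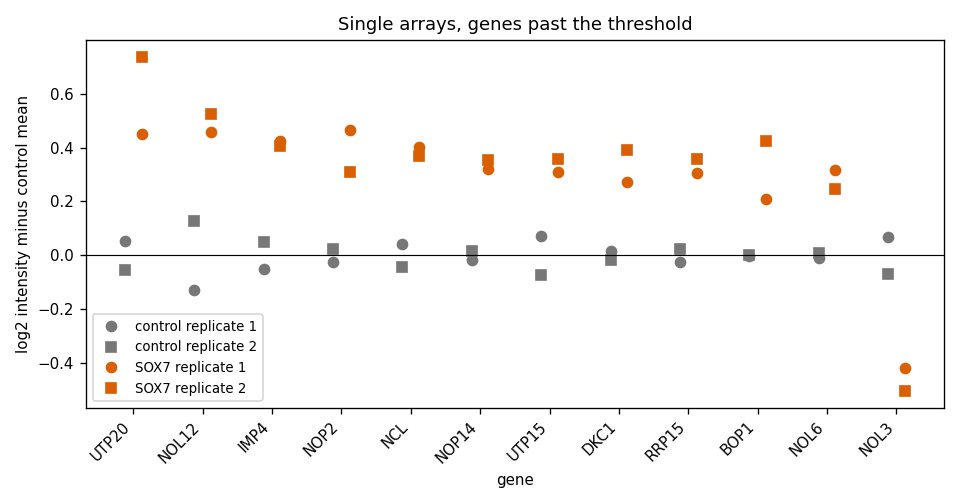
Log2 intensity of each single array minus the control mean (y axis) for the 12 genes that passed (x axis); grey are the control and orange the SOX7 arrays, circles replicate 1 and squares replicate 2. In each of the 12 genes the 2 SOX7 arrays lie on one side of the 2 control arrays, below them for NOL3 and above them for the other 11. Genes that pass the test are picked for such separation, and the arrays did not overlap in 58.5% of all genes tested.

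The small subunit factors were the largest role, with 25 genes tested. Of these 5 rose and 0 fell (20%, against 18.8% of all genes tested). A positive difference was seen in 20, against 50.8% of all genes, and the median of the 25 was 0.20. In 16 of the 25 both SOX7 arrays lay above both control arrays and in 2 both lay below, against 29.6% and 29.0% of all genes. Besides UTP20 and IMP4, the genes that rose were NOP14, UTP15 and NOL6.

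NOP14, a processome component, read 8.47 and 8.50 in the control and 8.81 and 8.84 in the SOX7 arrays, a rise of 0.34 (SE 0.086, 1.26-fold). The 2 arrays of each group were close together. Its second probe differed by 0.21 with overlapping groups, and the mean of both probes (0.27) did not pass. Part of NOP14 is overlapped by the antisense gene NOP14-AS1.

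UTP15, which belongs to the early UTP-A complex that also binds ribosomal DNA, read 7.89 and 7.75 in the control and 8.13 and 8.18 in the SOX7 arrays, a rise of 0.33 (SE 0.091, 1.26-fold). Its companions in that complex lay near it without passing, with differences of 0.23 for UTP4 and 0.23 for NOL11, and in both the SOX7 arrays lay above the control arrays. NOL6, of the UTP-C complex, read 9.95 and 9.97 in the control and 10.28 and 10.21 in the SOX7 arrays, a rise of 0.28 (SE 0.087, 1.22-fold). A second, dim NOL6 probe differed by 0.00057, and the mean of both (0.14) did not pass. With the median of neighbouring genes removed, UTP15 (0.26) and NOL6 (0.21) did not pass.

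The calls of NOP14, UTP15 and NOL6 did not hold in every fit with an array left out. They were lost without SOX7 replicate 1 and without SOX7 replicate 2, where the differences were 0.35 and 0.32 for NOP14, 0.36 and 0.31 for UTP15, and 0.25 and 0.32 for NOL6. NOP14 and NOL6 also lost them without control replicate 1 and UTP15 and NOL6 without control replicate 2.

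Both SOX7 arrays lay above both control arrays in 29.6% of all genes tested, those that passed included. The share among all genes that did not pass is not given here. Of the 20 small subunit factors that did not pass, 11 had both SOX7 arrays above both control arrays. These include UTP6 (0.25) of the UTP-B complex, RRP12 (0.25), whose yeast counterpart helps export the small subunit, NOL7 (0.22), UTP25 (0.21) and RRP7A (0.20). A second UTP25 probe, below the intensity filter, differed by −0.40, with both SOX7 arrays below both control arrays. The remaining positive differences were 0.14 for UTP23, 0.13 for UTP18, another UTP-B protein, 0.12 for UTP14A, 0.088 for NAT10, the ribosomal RNA acetyltransferase, 0.057 for UTP11, 0.023 for UTP3 and 0.010 for UTP14C. Negative differences were seen in NOL10 (−0.013), the U3-binding protein gene RRP9 (−0.026), IMP3 (−0.076), NOP9 (−0.13) and RRP36 (−0.17). RRP36 read 12.29 and 12.33 in the control and 12.21 and 12.07 in the SOX7 arrays, with the SOX7 arrays below. UTP14C is a retrocopy of UTP14A, and RRP7A has the near-identical pseudogene RRP7BP, so their probes may share transcripts and their values are uncertain.

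Positive differences were seen in 50.8% of all genes tested. All 13 large subunit factors were tested and all had a positive difference on their brightest probe. Of these 4 rose and 0 fell (30.8%, against 18.8% of all genes tested), with a median of 0.15. In 10 of the 13 both SOX7 arrays lay above both control arrays, against 29.6% of all genes. The genes that rose, besides NOL12 and NOP2, were RRP15 and BOP1.

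RRP15 read 9.63 and 9.68 in the control and 9.96 and 10.01 in the SOX7 arrays, a rise of 0.33 (SE 0.087, 1.26-fold). The arrays of each group lay close together, and the call was lost without control replicate 1 (0.30), without either SOX7 array (0.36 and 0.30) and with neighbouring genes removed (0.26). BOP1, PES1 and WDR12 form the PeBoW complex, which is needed to mature large subunit RNA. BOP1 read 12.44 and 12.44 in the control and 12.65 and 12.86 in the SOX7 arrays, a rise of 0.32 (SE 0.096, 1.24-fold). Its control arrays were nearly equal and its SOX7 arrays were spread, and the call was lost without SOX7 replicate 2 (0.21) and without either control array.

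The other PeBoW genes did not pass on their brightest probe. PES1 read 9.32 in both control arrays and 9.51 and 9.58 in the SOX7 arrays (difference 0.23). WDR12 read 10.61 and 10.60 in the control and 10.75 and 10.85 in the SOX7 arrays (difference 0.20). The SOX7 arrays were thus above the control arrays for all 3 PeBoW genes, a pattern seen in 29.6% of all genes tested. The second WDR12 probe passed on its own with a difference of 0.30, as did the mean of both probes (0.25). The remaining large subunit factors ran from 0.062 for NOL8 to 0.15 for RRP1, which encodes a nucleolar protein, and included RRP8 (0.14), a ribosomal RNA methyltransferase, NOP53 (0.13), RRP1B (0.11), NOL9 (0.10), a polynucleotide kinase of precursor processing, and NOP16 (0.10). A second NOL8 probe above the filter differed by −0.17, with both SOX7 arrays below both control arrays. The second RRP1 probe, below the filter, differed by −0.054. WDR12 and NOP58 lie in a stretch of the genome whose median difference was 0.15, and with it removed they differed by 0.052 and 0.049.

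The 7 snoRNP core proteins were all tested. Of these 1 rose and 0 fell (14.3%, against 18.8% of all genes tested), and the median was 0.12. DKC1, the pseudouridine synthase of box H/ACA snoRNPs that is mutated in dyskeratosis congenita, read 12.38 and 12.35 in the control and 12.64 and 12.75 in the SOX7 arrays, a rise of 0.33 (SE 0.089, 1.26-fold). Both SOX7 arrays were above the control arrays, and the call was lost without SOX7 replicate 2 (0.27) and without either control array.

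The 3 proteins that bind DKC1 in these particles differed by 0.12 for NOP10, 0.082 for GAR1 and −0.032 for NHP2 without passing. NHP2 was even over its 4 probes, which ran from −0.032 to 0.035, while those of GAR1 ran from −0.021 to 0.29. Among the box C/D proteins, the methyltransferase gene FBL read 12.41 and 12.36 in the control and 12.61 and 12.66 with SOX7. Its difference of 0.25 did not pass, but it did so under 5 of 15 alternative settings, among them the looser threshold of 0.10. NOP58 differed by 0.20 and its partner NOP56 by −0.015, with the NOP56 arrays overlapping. The other NOP56 probes differed by 0.10 and 0.13.

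NCL encodes nucleolin, an abundant nucleolar RNA-binding protein. It read 12.17 and 12.09 in the control and 12.53 and 12.50 in the SOX7 arrays, a rise of 0.38 (SE 0.087, 1.31-fold). The groups were well apart, and its second probe passed with 0.30. The call was lost without SOX7 replicate 1 (0.37) and with the median of its neighbours, 0.11, removed (0.27). NPM1, the nucleolar chaperone nucleophosmin, was covered by 1 probe that read 6.05 and 6.01 in the control and 6.17 and 6.07 in the SOX7 arrays. These values lie below the intensity filter and below the array median, so NPM1 was not tested and its change is not known from these arrays.

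NOL3 encodes ARC, a repressor of apoptosis with a caspase recruitment domain, and has no known role in ribosome synthesis. It read 8.35 and 8.22 in the control and 7.87 and 7.78 in the SOX7 arrays, a fall of 1.38-fold (difference −0.46, SE 0.092). Both SOX7 arrays were below both control arrays, and the second probe also passed, at −0.30. The call held in all 4 fits without 1 array, with differences from −0.53 to −0.39. The remaining genes named only by the rule did not pass, with differences of 0.025 for NOP14-AS1, −0.029 for RRP7BP and −0.062 for NOL4, and NOL4L (0.034) lay below the filter. Their control and SOX7 arrays overlapped.

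**Figure D3:**
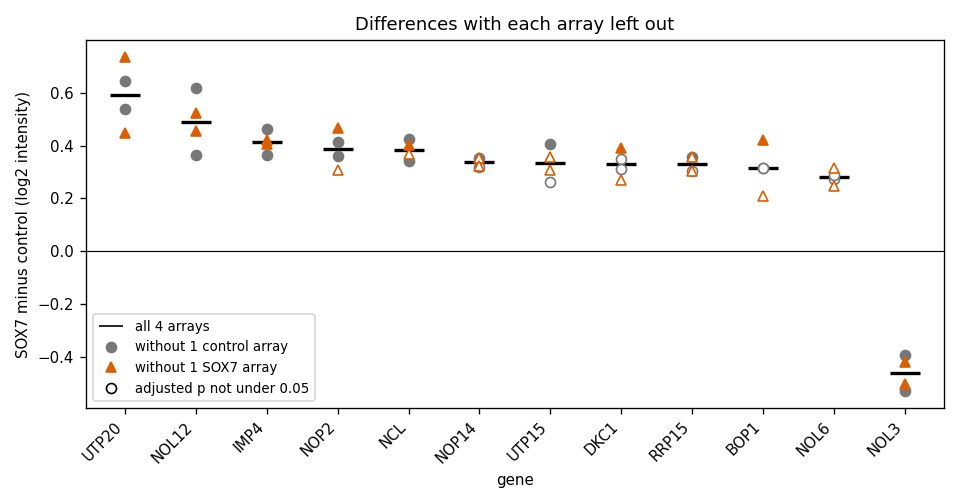
Difference between SOX7 and control (log2 intensity, y axis) for the 12 genes that passed (x axis), with all 4 arrays (black bars) and with each array left out (grey circles, 1 control array left out; orange triangles, 1 SOX7 array left out); open symbols did not reach an adjusted p under 0.05. Every symbol keeps the sign of the bar, which leaving out 1 array cannot change where the groups do not overlap. UTP20, NOL12, IMP4 and NOL3 have filled symbols only, and all 4 symbols of NOL6 are open.

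Whether a second probe bore out the first could be looked at for 15 of the 52 genes, which had 22 further probes above the filter. Of these 16 had the sign of the brightest probe and 6 the opposite sign. The 5 that passed on their own, in NCL, NOL3, WDR12 and 2 in NOP2, had the same sign. Over all genes, 2916 of 17100 probes passed when each was tested on its own, brightest probes included. How often further probes shared the sign over all genes is not given here.

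Genes of ribosome synthesis that the rule does not name were compared in the same fit. Of 36 other small subunit factors, 7 rose and 0 fell (19.4%, against 18.8% of all genes tested), with a median of 0.15, and 31 differences were positive. In 23 of the 36 both SOX7 arrays lay above both control arrays and in 0 both lay below, against 29.6% and 29.0% of all genes. The largest rises were in DHX37, a helicase that releases U3 (0.39, limma adjusted p = 0.0114), HEATR1, the human UTP10 counterpart (0.37, limma adjusted p = 0.0139), LYAR (0.37, limma adjusted p = 0.0151) and KRR1 (0.33, limma adjusted p = 0.036). A second, dimmer DHX37 probe differed by 0.10 without passing, and a second LYAR probe by 0.49. Each of these 4 calls was lost on leaving out 1 array or another, for DHX37 without control replicate 1 or SOX7 replicate 2 and for KRR1 without control replicate 1, control replicate 2 or SOX7 replicate 1. KRR1 also lost it with neighbouring genes removed (0.18). HEATR1 lost it without control replicate 2 or SOX7 replicate 2 and LYAR without control replicate 1 or SOX7 replicate 2.

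Of 48 other large subunit factors, 8 rose and 1 fell (18.8%, the same share as of all genes tested), with a median of 0.14, and 39 differences were positive. BRIX1, a binder of the large subunit precursor, read 12.20 and 12.12 in the control and 12.59 and 12.70 in the SOX7 arrays, a rise of 0.49 (SE 0.090, 1.40-fold; limma adjusted p = 0.00266), and its second probe differed by 0.48. MAK16 rose by 0.46, RBM28 by 0.45 and WDR55 by 0.45 (limma adjusted p from 0.00447 to 0.00462). These 4 calls held in all fits without 1 array. RRS1, a large subunit assembly factor, was the gene that fell (−0.30, limma adjusted p = 0.0416), and its call was lost without control replicate 1, SOX7 replicate 1 or SOX7 replicate 2.

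Nucleases, snoRNP assembly and transcription by RNA polymerase I were listed separately. Of their tested genes 8.7%, 9.09% and 6.67% passed, in that order, against 18.8% of all genes tested. Of 23 tested exosome, RNase MRP and other nuclease genes, 2 rose and 0 fell, with a median of 0.062. EXOSC3, a cap subunit of the RNA exosome, read 11.80 and 11.66 in the control and 12.14 and 12.31 in the SOX7 arrays, a rise of 0.50 (SE 0.096, 1.41-fold; limma adjusted p = 0.00363), with a second probe at 0.47. POP1 rose by 0.30 (limma adjusted p = 0.0315), a call that no fit on 3 arrays gave and that was also lost with neighbouring genes removed (0.25). Of 11 snoRNP assembly factors 1 rose, NOLC1 (0.37, limma adjusted p = 0.0135; lost without control replicate 2 or SOX7 replicate 1), and RPAP3 differed by 0.25 (limma adjusted p = 0.0669). Of 15 RNA polymerase I genes 1 rose, POLR1E (0.35, limma adjusted p = 0.018; lost without control replicate 1 or either SOX7 array, and at 0.24 with neighbouring genes removed; second probe 0.65), and TAF1D differed by 0.22 (limma adjusted p = 0.119), with a list median of 0.12.

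The proteins of the finished ribosome were listed apart from the factors that build it. Of 68 tested cytosolic ribosomal protein genes, 2 rose and 3 fell (7.35%, against 18.8% of all genes tested). Among the 68, 24 differences were positive, and the median was −0.029. RPL36A fell by 0.61 on the log2 scale (limma adjusted p = 0.000511), RPL13 by 0.50 (limma adjusted p = 0.00179) and RPL22 by 0.41 (limma adjusted p = 0.00636). RPL4 (0.29, limma adjusted p = 0.0378) and RPL7A (0.29, limma adjusted p = 0.0384) rose. The RPL4 call was lost without control replicate 1 or either SOX7 array and that of RPL7A on every set of 3 arrays. The second RPL13 probe differed by 0.16, and neither RPL13 (−0.17) nor RPL36A (−0.26) passed for the mean of its probes. Ribosomal protein genes have many pseudogenes, so their probes may read more than 1 transcript. Of 16 snoRNA host transcripts 1 rose and 2 fell (18.8%, the same share as of all genes tested). They were SNHG1 at 0.28 (limma adjusted p = 0.0431), SNHG11 at −0.38 (limma adjusted p = 0.00895) and ZFAS1 at −0.31 (limma adjusted p = 0.0335). The SNHG1 call was given by no fit on 3 arrays. That of ZFAS1 was lost without control replicate 2 or either SOX7 array and for the mean of its probes (−0.11), and with neighbouring genes removed ZFAS1 (−0.18) and SNHG11 (−0.27) did not pass.

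**Figure D4:**
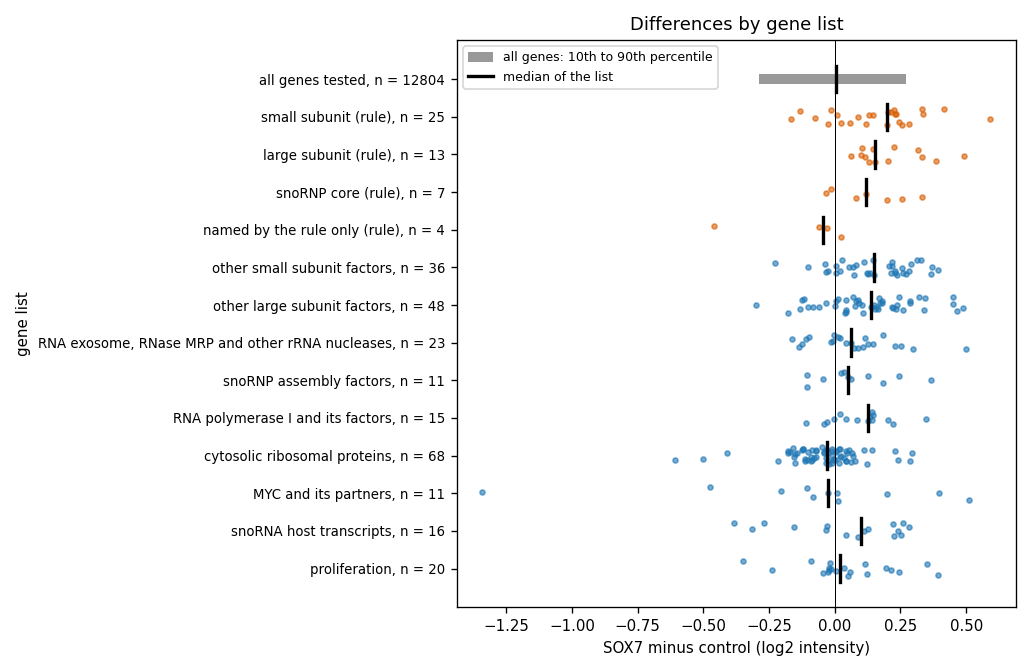
Difference between SOX7 and control (log2 intensity, x axis) of each tested gene by list (y axis); orange points are genes of the naming rule, blue points other lists, black bars the medians, and the grey bar spans the 10th to 90th percentile of all 12804 genes. NCL alone has no line of its own. Medians of subunit factors lie between 0.14 and 0.20, those of ribosomal proteins and of MYC and its partners at −0.029 and −0.026.

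MYC itself read 10.87 and 11.03 in the control and 10.98 and 10.94 in the SOX7 arrays, with overlapping groups and a difference of 0.011 (95% confidence interval −0.19 to 0.21; limma adjusted p = 0.954). Of the 11 tested genes of MYC and its partners, 2 rose and 2 fell (36.4%, against 18.8% of all genes tested). Among the proliferation genes given below 15% passed. MXD4, which competes with MYC for MAX and represses transcription, read 10.71 and 10.69 in the control and 9.51 and 9.21 in the SOX7 arrays, a 2.53-fold fall (difference −1.34, SE 0.11; limma adjusted p = 6.3e-06). The 2 groups were more than 1 log2 unit apart. MXD3, of the same family, fell (−0.48, limma adjusted p = 0.00831; lost without SOX7 replicate 2).

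MAX, the shared partner, rose on its brightest probe (0.51, limma adjusted p = 0.00315), but its other 3 probes differed by 0.12, −0.088 and −0.071 and the mean of all 4 (0.12) did not pass. MYCN rose (0.40, limma adjusted p = 0.0204), a call lost without control replicate 2 or SOX7 replicate 1 and for the mean of its probes (0.15), from control values of 6.38 and 6.19 near the array median. Of 20 proliferation genes 2 rose and 1 fell, with a median of 0.020, namely PLK1 (0.39, limma adjusted p = 0.0118; lost without SOX7 replicate 2), BUB1 (0.35, limma adjusted p = 0.0149; lost without control replicate 1 or either SOX7 array, and at 0.21 with neighbouring genes removed) and PCNA (−0.35, limma adjusted p = 0.0241; lost without control replicate 1 or SOX7 replicate 2).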

How the data were processed

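PolyA RNA of 2 control and 2 SOX7 samples was measured on 4 Illumina arrays, whose number limits the precision. The deposited values are log2 intensities. Once sorted, they matched between arrays within 0.000683, as quantile normalized values do. Which software and background correction made them is not given in the sources used here. Detection p-values were not part of what was used. Of 48107 probes, 30113 carried 1 gene in the platform annotation, 8 several and 17986 none. RefSeq held the gene ID of 30074 of these probes, and 0 symbols needed updating.

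The brightest probe stood for each gene, and genes with a mean below the median of all probe means (6.25) were left out. limma 3.58.1 in R 4.3.3 fitted a linear model per gene (2 residual and 11.7 moderated degrees of freedom, two-sided, Benjamini-Hochberg over all 12804 genes, threshold 0.05). The method was tested on simulated data, but no setting or result of that test is given here, so it adds no support. The text may name every gene of the rule, SOX7, MYC and, from each other list, up to 4 genes with the largest difference among those that passed (up to 2 where fewer than 2 passed), and RRS1 and RPL7A were named after their values were seen. Members and lists were chosen with earlier results of these data known. Alternatives were other filters, an offset of 16, the mean of probes or single probes, a trended robust prior, a replicate block, repeated normalization or centring, other thresholds, removal of the median of the 50 genes on each side along the chromosome, and leaving out each array. Promoters came from RefSeq (GRCh38.p14).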

Additional observations from a re-analysis of the deposited data

How the results depend on the processing

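The 12 ribosome biogenesis genes that passed (11 higher) kept their direction under every alternative run, and of 88 named genes with a test 0 changed the sign of a called value. The count was 5 at a threshold of 0.01, 17 at 0.10, 17 of 44 genes above the 75th percentile of intensity, 18 with the trended robust prior, 8 without an intensity filter, 8 with neighbouring genes removed and 6 to 8 with 1 array left out. The other pathway lists gave 35 calls among 247 genes, 21 without an intensity filter, 54 with the trended robust prior, 12 at a threshold of 0.01, 54 at 0.10 and 18 to 22 with 1 array left out. Over all genes the count of 2408 became 1224 at 0.01 and 1486 to 1937 with 1 array left out, lowest without SOX7 replicate 2 and at 1575 without SOX7 replicate 1; why the counts moved was not tested, beyond the smaller number of arrays. Replicate numbers are shared by the groups, but same-numbered arrays did not deviate together (r = −0.017 across tested genes, which are not independent), so the numbers were not taken as pairs; with the replicate number as a block 2834 genes, 12 ribosome biogenesis genes and 38 of the other lists passed. The count over all genes was 3343 at a threshold of 0.10 and 2914 with the trended robust prior, both of 12804. It was 2642 of 7918 above the 75th percentile, 1775 of 20046 without an intensity filter and 2171 of 12794 with neighbouring genes removed. At each of these settings the ribosome biogenesis count and the all-gene count moved in the same direction. Without detection values, signals near the array median, as for UTP25, NOL9, NOP9, NOL4 and MYCN, were not separated from background.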
